A study of Homo sapiens with 12 samples.

Results

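The cell cycle inhibitors of the CIP/KIP and INK4 families, the D cyclins and their kinase CDK4 were followed across U937 cells, an established human myelomonocytic cell line, carrying an empty vector or a vector labelled EVI1, with or without the phorbol ester TPA. The set was a list of 10 genes. Of these, 9 had at least 1 probe set that the platform annotation assigned to that gene alone, out of 19775 such genes on the array, and CDKN2C was not analysed here for want of a named probe set. Each gene was read at its single-gene probe set with the highest mean over 12 arrays, and its other probe sets, 9 in all for 6 of the genes, served as a check, with p-values adjusted over all 41097 single-gene probe sets. The 4 groups of 3 arrays were U937 cells with an empty vector in ethanol, the same cells in TPA, U937 cells with an EVI1 expression vector in ethanol, and these cells in TPA. TPA was given at 50 ng/ml and ethanol was its solvent, each for 24 h to growing cultures. All groups share the U937 background and a vector. The design text calls the 3 arrays of a group biological replicates and does not say whether each came from its own transduction, so p-values may not cover the spread between transductions.

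Progression from G1 into DNA synthesis depends on D cyclins, which bind CDK4 or CDK6 and start the phosphorylation of the retinoblastoma protein. INK4 proteins (p16, p15, p18 and p19, from CDKN2A to CDKN2D) bind CDK4 and CDK6 and block their pairing with D cyclins, whereas the CIP/KIP proteins p21 (CDKN1A) and p27 (CDKN1B) act on a wider range of cyclin and kinase pairs, above all those of CDK2. Myeloid cells that differentiate into macrophages leave the cell cycle, and phorbol esters, which activate protein kinase C, are used to bring U937 cells to that state. EVI1, a product of the MECOM locus, is a transcription factor with zinc fingers and is linked to aggressive myeloid leukaemia.

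The values are log2 probe set signals. Group levels are mean ± SD with n = 3, and differences are log2 values ± SE from limma, with p-values adjusted by the Benjamini-Hochberg method over 19775 genes and a threshold of 0.05. The lowest array median was 5.07, and signal above background is not shown for groups whose mean is under it. The 5 MECOM probe sets read 2.59 to 3.32 on the 12 arrays and none passed the threshold between the populations (smallest limma adjusted p = 0.102), so EVI1 expression is not shown by these probe sets and the population is called EVI1-labelled. Whether these probe sets lie within the insert of the vector is not known here. Of 10 measured genes of myeloid identity, 8 or 9 lay above 5.07 in each group, with PTPRC, SPI1, LYZ and MPO among them. Of 12 epithelial and fibroblast markers 4 or 5 did so, with list means of 4.51 to 4.69. Of 6 measured erythroid genes 4 or 5 did so, with list means of 5.55 to 5.94. The same held for 4 or 5 of 7 megakaryocyte genes and 6 or 7 of 13 lymphoid genes. The count above 5.07 alone therefore does not set the myeloid list apart from the erythroid one. The 19 proliferation markers averaged 10.99 to 11.15 on the 6 ethanol arrays, 6.91 to 7.62 on those of empty vector cells in TPA and 7.32 to 8.41 on those of EVI1-labelled cells in TPA. In bulk RNA a smaller share of dividing cells and less RNA per cell cannot be told apart. The gap between the 3' and 5' control probe sets of ACTB averaged 1.31 ± 0.17 (SD) with TPA and 1.85 ± 0.13 with ethanol over 6 arrays each (p = 0.00216 by a two-sided exact permutation test). For GAPDH the averages were 0.398 ± 0.113 (SD) and 0.570 ± 0.145 (p = 0.0476 by the same exact test). The part of the proliferation markers and of these gaps in the results was not tested.

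TPA raised CDKN1A and CDKN2B by large amounts in both populations and lowered CCND2, CDK4 and CDKN1B. The remaining members moved by smaller amounts, except that CCND1 moved more than CDKN1B in EVI1-labelled cells (1.42 against -0.94). In empty vector cells 4 of 9 members rose and 4 fell, where 43.2% of all genes were called, 20.7% higher and 22.5% lower. In EVI1-labelled cells 4 rose and 5 fell, where 40.0% of all genes were called, 19.4% higher and 20.6% lower. The direction therefore divided the set, and the inhibitors did not all move one way. The median over the 9 members was 0.15 for the empty vector population and -0.55 for the EVI1-labelled one, beside 0.02 and 0.00 over all genes. Each of these medians is the value of 1 gene, CCND3, and does not describe a shift of the whole set. The median of the members' differences in response was 0.15, beside 0.01 over all genes.

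**Figure D1:**
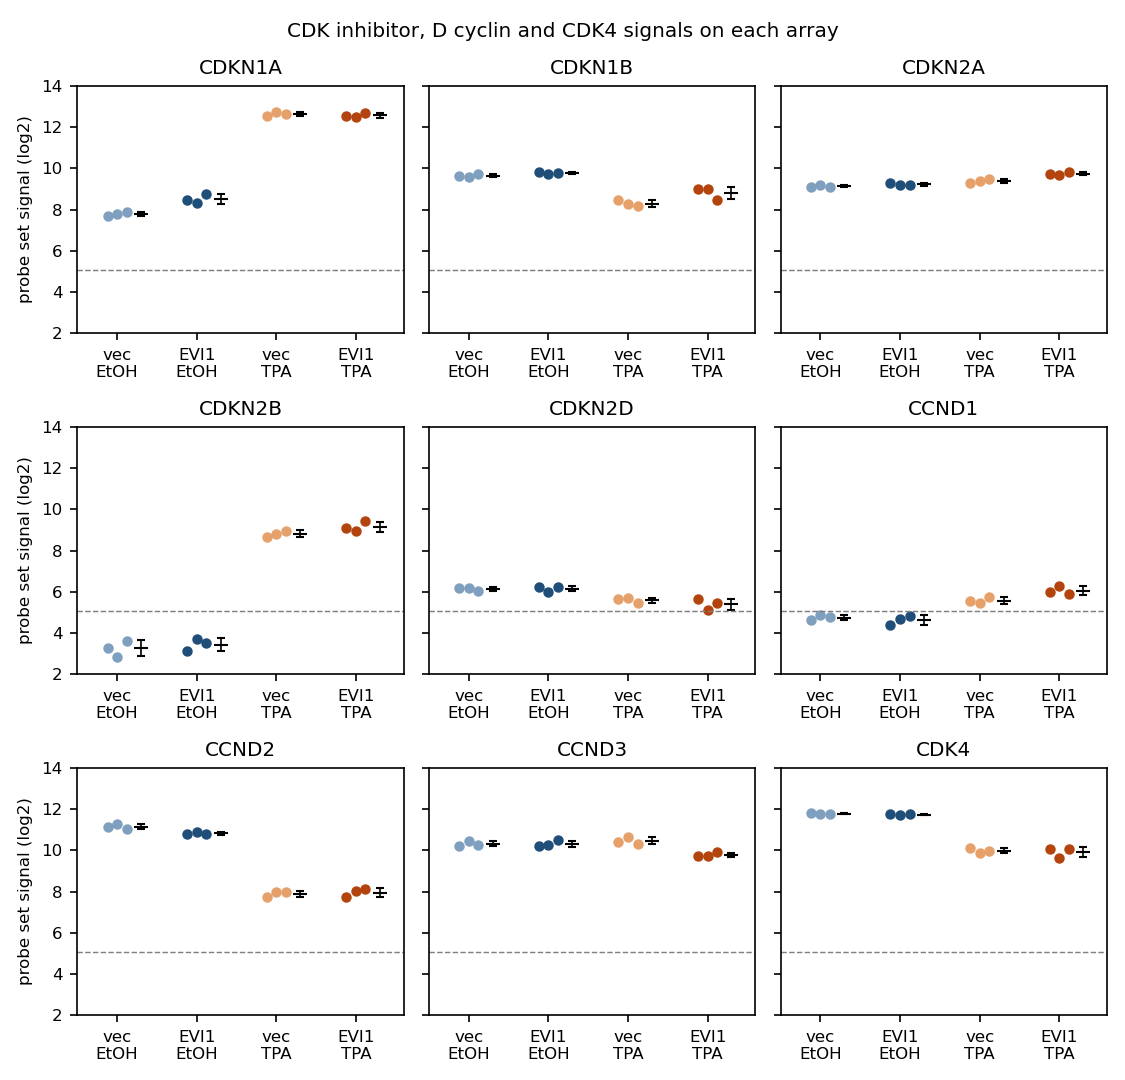
Signal of each measured member on every array, as log2 on the vertical axis, with 3 points per group for empty vector (vec) and EVI1-labelled (EVI1) cells in ethanol (EtOH) or TPA, the black bar and whiskers giving mean ± SD. The dashed line is the lowest array median, 5.07. On all 6 TPA arrays CDKN1A and CDKN2B are higher, and CCND2 and CDK4 lower, than on the ethanol arrays. CCND3 is lowest on the 3 arrays of EVI1-labelled cells in TPA.

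CDKN1A encodes p21, a CIP/KIP inhibitor that many differentiation signals induce. The gene lies on chromosome 6 (GRCh38.p14, 36676463 to 36687332) and was read at probe set 202284_s_at, its only single-gene probe set. The empty vector arrays read 7.67, 7.76 and 7.90 in ethanol and 12.56, 12.73 and 12.64 in TPA. The EVI1-labelled arrays read 8.47, 8.30 and 8.77 in ethanol and 12.52, 12.49 and 12.69 in TPA. Every TPA array lay above every ethanol array. The rise was 4.87 ± 0.11 in empty vector cells, 29.2-fold (limma adjusted p = 1.17e-12), and 4.05 ± 0.11 in EVI1-labelled cells, 16.6-fold (limma adjusted p = 8.59e-12). Among all 19775 genes these were the 67th and 86th largest rises. In the order of the levels, empty vector cells in ethanol came first, then EVI1-labelled cells in ethanol, and the TPA groups stood together at the top.

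CDKN2B encodes p15, the INK4 inhibitor known from its induction by TGF-beta. It lies on chromosome 9 (GRCh38.p14, 22002903 to 22009313), next to CDKN2A. At probe set 236313_at the empty vector arrays read 3.28, 2.84 and 3.62 in ethanol and 8.65, 8.82 and 8.97 in TPA, and the EVI1-labelled arrays 3.10, 3.68 and 3.52 in ethanol and 9.08, 8.95 and 9.43 in TPA. All 6 ethanol arrays were below the lowest array median and all 6 TPA arrays far above it. CDKN2B rose by 5.57 ± 0.19 in empty vector cells (limma adjusted p = 3.63e-11) and by 5.72 ± 0.19 in EVI1-labelled cells (limma adjusted p = 4.38e-11), the 45th and 28th largest rises. The ethanol levels are not shown to be above background, so these sizes are uncertain. Measured from the lowest array median the TPA means stood 3.74 and 4.08 higher. The other probe set of the gene, 207530_s_at, had group means of 4.33 to 4.88, all below that median, and rose by 0.40 ± 0.12 and 0.54 ± 0.12. The size of the CDKN2B response therefore rests on 1 probe set.

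The promoters of the 2 inhibitors that rose most are shown with that of CDK4, the member with the largest fall among those with a RefSeq window here. CCND2 fell further and is not in the table of windows, and neither is CCND1. The sequences are RefSeq's (GRCh38.p14), the 250 bases upstream of a listed start site, 5′ to 3′ on the gene's strand, with matches in capitals to GGGCGG (the GC box bound by SP1) and CACGTG (the E box bound by MYC), searched on both strands. RefSeq windows were matched for 8 of the 10 genes.
CDKN1A (chr6:36678464-36678713, plus strand): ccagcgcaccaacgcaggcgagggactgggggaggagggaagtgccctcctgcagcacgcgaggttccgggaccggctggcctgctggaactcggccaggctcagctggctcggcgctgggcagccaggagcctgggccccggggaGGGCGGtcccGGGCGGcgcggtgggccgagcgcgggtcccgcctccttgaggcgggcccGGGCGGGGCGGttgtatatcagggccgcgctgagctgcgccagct
CDKN2B (chr9:22009306-22009555, minus strand): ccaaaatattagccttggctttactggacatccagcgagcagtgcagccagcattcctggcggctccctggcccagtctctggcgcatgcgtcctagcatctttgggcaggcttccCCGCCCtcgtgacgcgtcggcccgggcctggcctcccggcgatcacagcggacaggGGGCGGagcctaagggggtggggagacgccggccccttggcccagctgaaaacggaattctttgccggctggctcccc
CDK4 (chr12:57752311-57752560, minus strand): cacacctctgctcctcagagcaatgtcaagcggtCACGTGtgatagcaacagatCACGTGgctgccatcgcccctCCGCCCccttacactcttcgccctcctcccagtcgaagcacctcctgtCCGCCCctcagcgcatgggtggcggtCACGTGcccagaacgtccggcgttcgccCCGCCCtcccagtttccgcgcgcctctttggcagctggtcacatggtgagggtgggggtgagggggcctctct
The CDKN1A window held 4 GC boxes, of which 2 overlap in 1 run of capitals, CDKN2B held 2 and CDK4 held 3. At least 1 GC box is found in 42.6% of the 35116 windows of this length in the table and at least 3 in 13.9%. The CDK4 window held 3 CACGTG matches, where 6.34% of windows held at least 1 and 0.0797% at least 3, and neither of the other windows shown held one. Searches for TATAAA (the TATA box), TGACTCA (the AP-1 site) and CCAAT gave no match in these 3 windows, against shares of 10.7%, 4.20% and 32.0%. Among the windows not shown, those of CDKN1B and CDKN2D, which also fell at their main probe sets, held 0 CACGTG matches. The windows of CDKN2A and CCND3 also held 0, and CDKN2C windows 1 and 3 held 1 each. A match describes letters in a window and not a site in use.

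CDKN1B encodes p27, the CIP/KIP inhibitor that holds resting cells out of the cycle, and its RNA moved opposite to that of CDKN1A. It lies on chromosome 12 (GRCh38.p14, 12717368 to 12722369) and had 1 single-gene probe set, 209112_at. The empty vector arrays read 9.64, 9.57 and 9.71 in ethanol and 8.46, 8.26 and 8.15 in TPA, and the EVI1-labelled arrays 9.80, 9.71 and 9.76 in ethanol and 8.98, 8.99 and 8.48 in TPA. All TPA arrays were below all ethanol arrays. The fall was -1.35 ± 0.13 in empty vector cells (limma adjusted p = 5.80e-07) and -0.94 ± 0.13 in EVI1-labelled cells (limma adjusted p = 2.46e-05).

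CDKN2A, whose locus encodes p16 and, in another reading frame, p14ARF, changed little. At probe set 209644_x_at, whose suffix marks probes that can match other sequences, the empty vector arrays read 9.08, 9.18 and 9.11 in ethanol and 9.29, 9.40 and 9.50 in TPA. The EVI1-labelled arrays read 9.31, 9.17 and 9.18 in ethanol and 9.74, 9.68 and 9.82 in TPA. The rise was 0.27 ± 0.08 in empty vector cells (limma adjusted p = 0.0138) and 0.53 ± 0.08 in EVI1-labelled cells (limma adjusted p = 9.54e-05). The former call was lost when empty vector replicate 1 in ethanol (limma adjusted p = 0.0522) or replicate 3 in TPA (limma adjusted p = 0.0622) was left out. Probe set 207039_at gave 0.12 ± 0.08 and 0.27 ± 0.08, and only the latter was called (limma adjusted p = 0.323 and 0.0185). The remaining probe set, 211156_at, had group means of 4.04 to 4.12, below the lowest array median, and differences of -0.07 and -0.03. The probe sets were not matched to the p16 or p14ARF transcript. CDKN2A lies on chromosome 9 (GRCh38.p14, 21967752 to 21995324), beside CDKN2B, and the sizes of the responses of these neighbours differed widely.

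CDKN2D encodes p19, an INK4 inhibitor. Its main probe set, 210240_s_at, read 6.01 to 6.20 and 5.99 to 6.23 on the ethanol arrays of empty vector and EVI1-labelled cells and 5.44 to 5.68 and 5.11 to 5.63 on their TPA arrays, with no overlap between treatments. It fell by 0.55 on the log2 scale in empty vector cells (-0.55 ± 0.13, limma adjusted p = 0.00216) and by 0.75 in EVI1-labelled cells (-0.75 ± 0.13, limma adjusted p = 1.81e-04). The other probe set, 213586_at, gave the opposite call, 0.32 ± 0.10 and 0.38 ± 0.10 (limma adjusted p = 0.0203 and 0.00887), from group means of 4.07 to 4.45, which all lay below the lowest array median. The counts of members use the main probe set, and the probe sets of CDKN2D do not settle its direction.

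**Figure D2:**
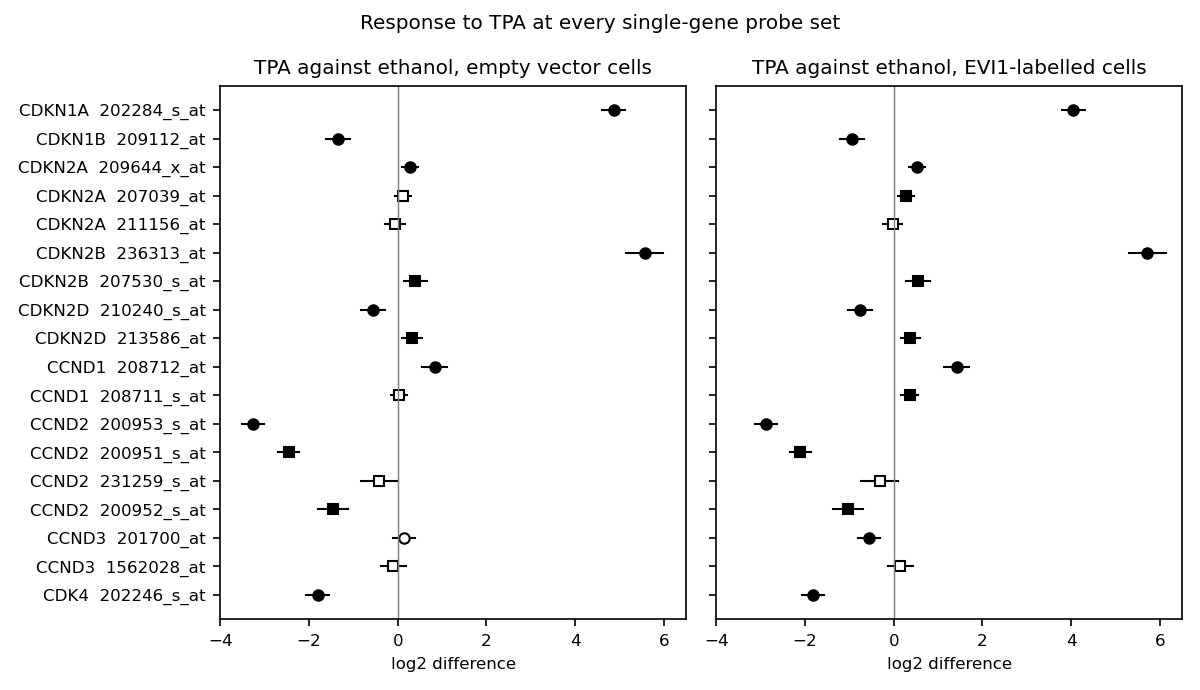
Response to TPA (log2 difference, horizontal axis) at each of the 18 single-gene probe sets of the 9 members, in empty vector cells (left) and EVI1-labelled cells (right), with 95% intervals as lines. Circles mark the probe set used for the gene, squares the others, and filled symbols an adjusted p under 0.05. CCND2 falls at 4 probe sets, of which 3 pass the threshold, while CDKN2B differs in size and CDKN2D in direction between probe sets.

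The 3 D cyclin genes moved in different directions. CCND2 encodes cyclin D2, and all its TPA arrays lay below all its ethanol arrays. Probe set 200953_s_at read 11.12, 11.29 and 11.05 in empty vector cells in ethanol and 7.73, 7.99 and 7.96 in TPA, and 10.79, 10.90 and 10.78 and then 7.71, 8.02 and 8.10 in EVI1-labelled cells. The fall was -3.26 ± 0.11 (limma adjusted p = 3.27e-11) and -2.88 ± 0.11 (limma adjusted p = 1.33e-10), the 179th and 181st largest among all genes. Of its 3 other probe sets, 200951_s_at gave -2.46 ± 0.11 and -2.10 ± 0.11 and 200952_s_at gave -1.45 ± 0.16 and -1.03 ± 0.16, each called. At 231259_s_at the differences of -0.43 ± 0.19 and -0.32 ± 0.19 missed the threshold (limma adjusted p = 0.0973 and 0.240), with the TPA means below the lowest array median. CCND2 lies on chromosome 12 (GRCh38.p14, 4273762 to 4305353).

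CCND1, the cyclin D1 gene of chromosome 11 (GRCh38.p14, 69641156 to 69654474), was dim and rose. Probe set 208712_at read 4.61, 4.85 and 4.75 in empty vector cells in ethanol and 5.54, 5.44 and 5.73 in TPA, and 4.38, 4.69 and 4.84 and then 6.0, 6.28 and 5.88 in EVI1-labelled cells. The ethanol means are not shown to be above background, and the TPA means stood 0.50 and 0.98 above the lowest array median. The rise was 0.83 ± 0.13 in empty vector cells (limma adjusted p = 1.10e-04) and 1.42 ± 0.13 in EVI1-labelled cells (limma adjusted p = 7.08e-07). Its other probe set, 208711_s_at, gave 0.03 ± 0.09 and 0.36 ± 0.09, of which only the latter was called (limma adjusted p = 0.855 and 0.00392).

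CCND3, which encodes cyclin D3 on chromosome 6 (GRCh38.p14, 41934933 to 42050035), kept a high signal. At probe set 201700_at the empty vector arrays read 10.22, 10.45 and 10.27 in ethanol and 10.39, 10.66 and 10.33 in TPA, ranges that overlap. The EVI1-labelled arrays read 10.22, 10.27 and 10.49 in ethanol and 9.71, 9.71 and 9.90 in TPA, without overlap. The difference was 0.15 in empty vector cells, with a 95% interval of -0.09 to 0.38 (limma adjusted p = 0.333), and the fall in EVI1-labelled cells was -0.55 ± 0.11 (limma adjusted p = 8.14e-04). Its other probe set, 1562028_at, had group means of 4.79 to 4.94, below the lowest array median.

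CDK4, the kinase partner of the D cyclins, lies on chromosome 12 (GRCh38.p14, 57747727 to 57752310) and fell in both populations. Probe set 202246_s_at, its only one, read 11.82, 11.75 and 11.78 in empty vector cells in ethanol and 10.11, 9.85 and 9.97 in TPA, and 11.75, 11.70 and 11.76 and then 10.08, 9.62 and 10.06 in EVI1-labelled cells. The fall was -1.81 ± 0.11 (limma adjusted p = 1.03e-08) and -1.82 ± 0.11 (limma adjusted p = 1.21e-08), 3.50-fold and 3.52-fold.

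Between the populations in ethanol, CDKN1A was the 1 member of 9 that passed the threshold, where 3.27% of all genes were called, 1.32% higher and 1.95% lower. The EVI1-labelled arrays (8.30 to 8.77) lay above the empty vector arrays (7.67 to 7.90), a difference of 0.74 ± 0.11 or 1.67-fold (limma adjusted p = 0.00226), the 64th largest increase. The call held with each of the 12 arrays left out in turn, with an adjusted p of at most 0.0168. CCND2 was at -0.33 ± 0.11 without overlap of the arrays, and did not pass (limma adjusted p = 0.175). At their main probe sets the other 7 members lay between -0.10 and 0.19, and their arrays overlapped. Other probe sets without overlap were CDKN2A 207039_at (8.11 to 8.24 in EVI1-labelled and 7.91 to 8.06 in empty vector cells) and CCND1 208711_s_at (4.84 to 4.95 and 5.13 to 5.21). Neither was called. For CDK4 the 95% interval was -0.29 to 0.20 and for CDKN1B -0.16 to 0.39.

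In TPA the CDKN1A levels of the populations met, and other members separated. Of 9 members 3 were higher and 1 lower in EVI1-labelled cells, where 11.2% of all genes were called, 5.90% higher and 5.30% lower. CCND3 was lower at -0.69 ± 0.11 (limma adjusted p = 0.00104), and all 3 EVI1-labelled arrays lay below the 3 empty vector arrays. CDKN1B was higher at 0.53 ± 0.13 (limma adjusted p = 0.0149), with values of 8.48 to 8.99 against 8.15 to 8.46. CCND1 was higher at 0.48 ± 0.13 (limma adjusted p = 0.0313) and CDKN2A at 0.35 ± 0.08 (limma adjusted p = 0.0129), each without overlap. For CDKN2A the probe set 207039_at gave a like difference of 0.36 ± 0.08 (limma adjusted p = 0.0140), while the other CCND1 probe set gave 0.08 ± 0.09 (limma adjusted p = 0.694). CDKN1A differed by -0.08, with a 95% interval of -0.32 to 0.17, CDKN2B by 0.34, with an interval of -0.08 to 0.76, and CDK4 by -0.06, with an interval of -0.30 to 0.19. Of 19 proliferation markers 5 were called higher in EVI1-labelled cells in TPA and none lower, with a median difference of 0.50, beside 5.90% of all genes called higher. Of 12 macrophage markers 1 was higher and 5 were lower in these cells, with a median of -0.42, and of 10 markers of myeloid identity 4 were lower, with a median of -0.34. The macrophage list averaged 4.73 to 5.08 on the ethanol arrays, 8.49 to 8.65 on the TPA arrays of empty vector cells and 7.92 to 8.36 on those of EVI1-labelled cells. The part of these markers in the differences was not tested.

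Of these 4 calls, that of CCND3 kept its side of the threshold with each of the 12 arrays left out and the others did not. CDKN1B missed it without replicate 1 or 2 of EVI1-labelled cells in TPA (limma adjusted p = 0.0623 and 0.0727) and without replicate 2 or 3 of empty vector cells in TPA (limma adjusted p = 0.0506 and 0.0652). CCND1 missed it without replicate 1 or 2 of empty vector cells in TPA (limma adjusted p = 0.0846 and 0.119) and of EVI1-labelled cells in TPA (limma adjusted p = 0.0561 and 0.139), and CDKN2A without replicate 1 of empty vector cells in TPA (limma adjusted p = 0.0567). In a fit of the 6 TPA arrays alone, CDKN1B, CCND1 and CDKN2A missed the threshold (limma adjusted p = 0.0879, 0.0642 and 0.0752).

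**Figure D3:**
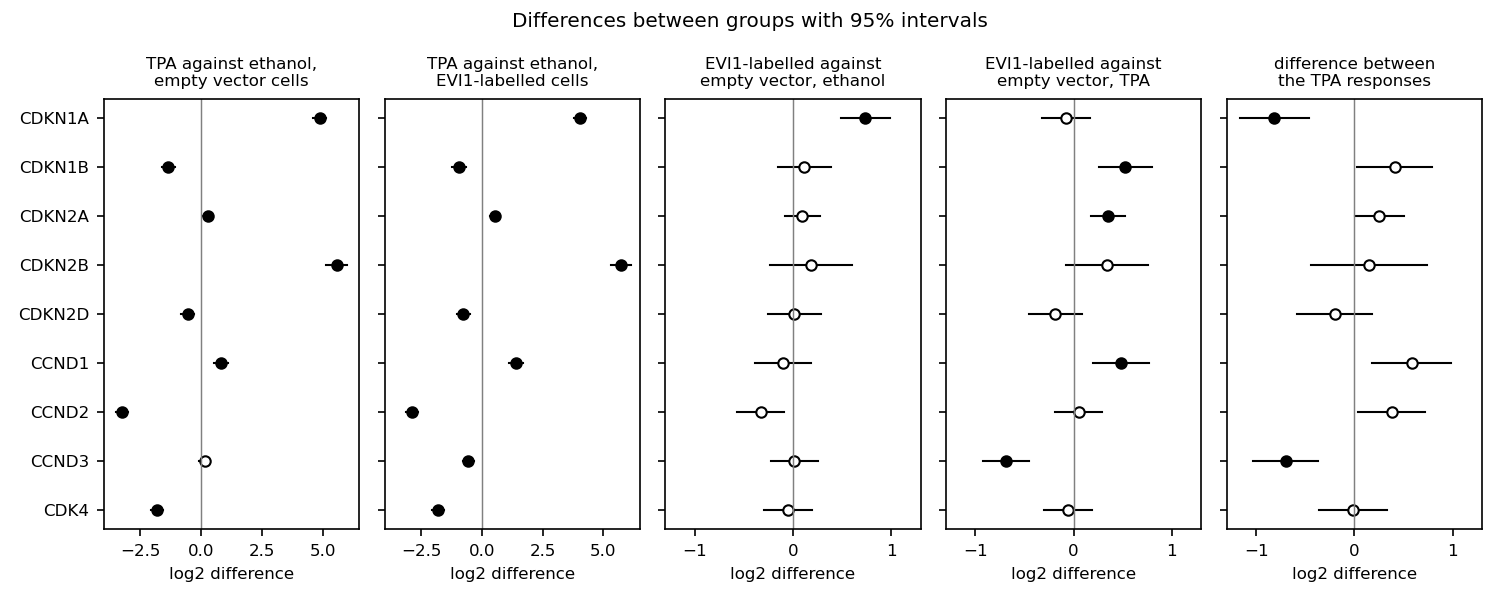
Log2 difference (horizontal axis) of each measured member in the 5 comparisons, with 95% intervals as lines and filled points for an adjusted p under 0.05. The horizontal scale is wider in the first 2 panels. CDKN1A differs between populations in ethanol and not detectably in TPA, and CCND3 the other way round.

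The difference between the TPA responses was tested directly. Of 9 members 2 passed, both toward a smaller value in EVI1-labelled cells, where 1.98% of all genes were called, 1.05% in that direction and 0.936% in the other. For CDKN1A the response was lower at -0.81 ± 0.16 (limma adjusted p = 0.0224), from a higher ethanol level and a TPA level that did not differ detectably. For CCND3 it was -0.70 ± 0.16 (limma adjusted p = 0.0377), between a small change that was not called in empty vector cells and a fall in EVI1-labelled cells. The CDKN1A call was lost without replicate 1 or 2 of empty vector cells in ethanol (limma adjusted p = 0.0702 and 0.0543), replicate 1 of EVI1-labelled cells in ethanol (0.0521), or replicate 2 of either population in TPA (0.0540 in empty vector and 0.0572 in EVI1-labelled cells). The CCND3 call held with replicate 2 of empty vector cells in ethanol or replicate 3 of either population in TPA left out, and was lost without any 1 of the other 9 arrays (limma adjusted p = 0.0562 to 0.105). The direction was the same in each case. CCND1 (0.58 ± 0.19), CDKN1B (0.41 ± 0.18), CCND2 (0.38 ± 0.16) and CDKN2A (0.25 ± 0.12) lay on the other side of 0 and missed the threshold (limma adjusted p = 0.169, 0.354, 0.322 and 0.387). CDKN1B passed without replicate 3 of EVI1-labelled cells in TPA (limma adjusted p = 0.0295). For CDK4 the difference was -0.01, with a 95% interval of -0.36 to 0.34, and for CDKN2B 0.15, with an interval of -0.44 to 0.74.

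The neighbours of these genes on the chromosome, 10 measured genes on each side in RefSeq order, gave medians near 0 where a member differed between populations. For CDKN1A in ethanol the neighbours had a median difference of 0.055 and 1 of 20 was called higher. For CCND3 in TPA the median was 0.00, with 1 of 20 called higher and 0 lower, and for CDKN1B in TPA it was 0.03, with 1 called higher. In TPA 0 of the 20 neighbours of CDKN2A were called and 3 of those of CCND1 were called lower, opposite to CCND1. This comparison was added after the values were seen.

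Other genes of the same pathway gave the setting of these changes under TPA. Of 13 other CDKs and G1/S cyclins 9 fell and none rose in empty vector cells, and 8 fell and 1 rose in EVI1-labelled cells, with medians of -0.68 and -0.62. CCNE2 and CCNA2, the cyclins that partner CDK2, were at -4.46 ± 0.19 and -4.71 ± 0.32 in empty vector cells and -4.56 ± 0.19 and -4.13 ± 0.32 in EVI1-labelled cells, and CDK1, the mitotic kinase, at -5.24 ± 0.54 and -4.17 ± 0.54. CDK2 itself was at -2.33 ± 0.15 and -2.40 ± 0.15 and CCNE1 at -1.98 ± 0.12 and -2.04 ± 0.12, and these last 2 genes were chosen after their values were seen. At the other CCNE1 probe set the EVI1-labelled cells gave a call of opposite sign, and 1 of 2 other CDK2 probe sets was called in the same direction. Each of these falls passed the threshold (largest limma adjusted p = 1.86e-05, for CDK1 in EVI1-labelled cells).

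CDK6, which pairs with D cyclins as CDK4 does, behaved otherwise than CDK4. It read 11.69, 11.53 and 11.79 in empty vector cells in ethanol, 11.22, 11.28 and 11.18 in TPA, 12.39, 12.32 and 12.38 in EVI1-labelled cells in ethanol and 12.15, 12.28 and 12.05 in TPA. All EVI1-labelled arrays lay above all empty vector arrays. The difference between populations was 0.69 ± 0.09 in ethanol (limma adjusted p = 5.21e-04) and 0.93 ± 0.09 in TPA (limma adjusted p = 1.99e-05), and 3 of its 6 other probe sets were called in the same direction in each treatment and none in the opposite one. Its difference with TPA was -0.44 ± 0.09 in empty vector cells (limma adjusted p = 7.21e-04) and -0.20 ± 0.09 in EVI1-labelled cells (limma adjusted p = 0.0858, and 0.0415 without replicate 2 of these cells in TPA). At 3 of its 6 other probe sets CDK6 was called lower with TPA in empty vector cells, and at 2 in EVI1-labelled cells, with 0 called higher. Of its 20 neighbours on chromosome 7, 4 were called higher and 3 lower between populations in ethanol and 7 higher and 3 lower in TPA, with medians of 0.07 and 0.04. These are 35.0% and 50.0% of the neighbours, beside 3.27% and 11.2% of all genes.

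Of 7 genes of other CDK inhibitors and of kinases or partners that act on CDKs, 2 rose and 5 fell in each population, with medians of -1.05 and -1.02. WEE1 and PKMYT1, kinases that inhibit CDK1, were at -3.32 ± 0.12 and -1.55 ± 0.12 in empty vector cells and -3.24 ± 0.12 and -1.31 ± 0.12 in EVI1-labelled cells. CDKN3, a phosphatase of CDKs named as an inhibitor, was at -4.67 ± 0.46 and -3.86 ± 0.46. CDC37, a chaperone partner of CDK4, was at 0.32 ± 0.09 and 0.68 ± 0.09. CDKN1C, which encodes p57 of the CIP/KIP family, was at 0.56 ± 0.17 and 0.54 ± 0.17 (limma adjusted p = 0.0140 and 0.0199) from ethanol means of 4.82 and 4.97, below the lowest array median. The CDKN1C call was lost without replicate 1 of empty vector cells in TPA (limma adjusted p = 0.0708) or replicate 2 in ethanol (0.0583), and in EVI1-labelled cells without replicate 1 or 2 in ethanol (0.0576 and 0.0550) or in TPA (0.0937 and 0.0594).

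The pocket proteins, which are substrates of the D cyclin kinases, moved in different directions. Of 13 pocket protein and E2F genes 2 rose and 7 fell in empty vector cells, and 1 rose and 7 fell in EVI1-labelled cells, with medians of -0.36 and -0.50. RB1, the retinoblastoma gene, was at 0.79 ± 0.10 and 1.09 ± 0.10 (limma adjusted p = 1.06e-05 and 5.02e-07), and its other probe set was called in the same direction in EVI1-labelled cells and missed the threshold in empty vector cells. The pocket protein gene RBL1 fell, at -2.69 ± 0.17 and -1.97 ± 0.17 (limma adjusted p = 1.16e-08 and 3.35e-07). Its 3 other probe sets were called in the same direction in empty vector cells. RBL2, which encodes p130, was at -0.27 and -0.10 and missed the threshold (limma adjusted p = 0.0539 and 0.542), and was chosen after its values were seen. E2F8, a repressor of the E2F family, was at -6.12 ± 0.22 and -5.83 ± 0.22, with TPA means below the lowest array median, and E2F2 at -4.04 ± 0.22 and -3.78 ± 0.22.

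Of 19 genes for the turnover of CDK inhibitors and D cyclins 5 rose and 11 fell in empty vector cells and 5 rose and 9 fell in EVI1-labelled cells, with medians of -0.35 and -0.23. SKP2, the F-box protein that directs p27 to the proteasome, was at -2.91 ± 0.07 and -2.72 ± 0.07 (chosen after its values were seen), and its cofactor CKS1B at -3.11 ± 0.30 and -2.89 ± 0.30. DTL, which directs p21 to degradation during DNA synthesis, was at -6.03 ± 0.31 and -5.39 ± 0.31, with the TPA mean of empty vector cells (5.05) not shown to be above background. USP2, an enzyme that removes ubiquitin from cyclin D1, was at 1.98 ± 0.17 and 1.86 ± 0.17, and 1 of its 3 other probe sets was called in the same direction.

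Of 35 transcription factors known to act on CDK inhibitor or D cyclin genes 18 rose and 9 fell in empty vector cells and 17 rose and 8 fell in EVI1-labelled cells, with medians of 0.26 and 0.30. EGR1, an early response factor, was at 5.41 ± 0.17 and 5.19 ± 0.17, FOS at 3.70 ± 0.17 and 3.29 ± 0.17, and KLF6, a zinc finger factor known to act on CDKN1A, at 3.31 ± 0.14 and 2.95 ± 0.14. MYC, which represses CDKN1A and CDKN2B and activates CDK4 and CCND2 in other systems, was at -2.86 ± 0.09 and -2.58 ± 0.09.

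Of 10 measured Polycomb genes and other repressors of the INK4 locus 1 rose and 5 fell in empty vector cells and 2 rose and 5 fell in EVI1-labelled cells, with medians of -0.40 and -0.26. EZH2, the methyltransferase of the complex, was at -3.15 ± 0.13 and -2.49 ± 0.13, and DNMT1, the maintenance DNA methyltransferase, at -1.64 ± 0.12 and -2.01 ± 0.12. JARID2, an accessory subunit, was at 1.34 ± 0.10 and 1.68 ± 0.10.

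**Figure D4:**
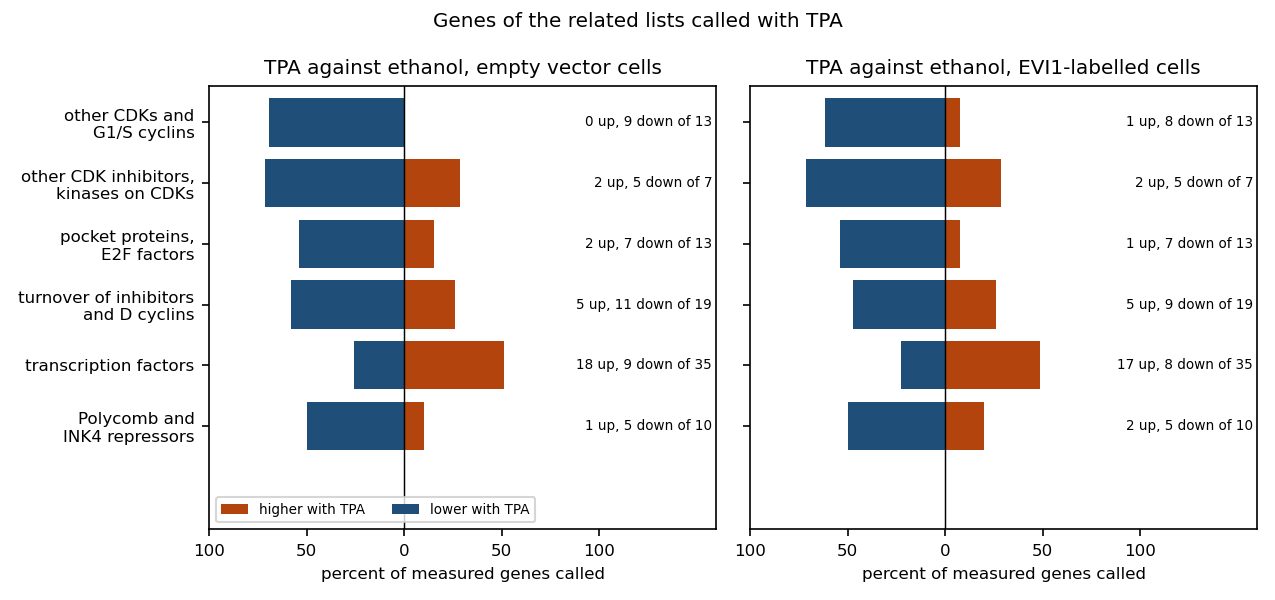
Share of the measured genes of 6 related lists that were called higher (right of 0) or lower (left of 0) with TPA, in percent of the measured genes, for empty vector cells and EVI1-labelled cells, with the counts written beside the bars. The transcription factors are the list with most genes higher, 18 of 35 and 17 of 35, and the other CDKs and cyclins have 0 and 1 of 13 higher. Over all genes 20.7% were higher and 22.5% lower in empty vector cells, and 19.4% and 20.6% in EVI1-labelled cells.

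Between the populations in ethanol 5 of the 97 measured genes of all lists passed, 5.15% beside 3.27% of all genes, CDK6 among them. ID1, a helix-loop-helix factor that restrains differentiation and represses CDKN2A in other cells, was lower in EVI1-labelled cells at -1.33 ± 0.12 (limma adjusted p = 5.76e-05). Of the 20 neighbours of ID1 on chromosome 20, 2 were called lower in ethanol and 2 in TPA, with medians of -0.03 and 0.01. These are 10.0% in each treatment, beside 3.27% and 11.2% of all genes. FBXO4, an F-box protein linked to cyclin D1 turnover, was lower in ethanol at -0.55 ± 0.09 (limma adjusted p = 0.00305) and in TPA at -0.71 ± 0.09 (limma adjusted p = 1.62e-04), and neither of its 2 other probe sets was called. In TPA 14 of the 97 passed, 14.4% beside 11.2% of all genes, with CEBPA, a factor of granulocyte differentiation that acts with p21, at 0.82 ± 0.13 (limma adjusted p = 8.96e-04) and SMAD3, a mediator of TGF-beta signals, at 0.73 ± 0.10 (limma adjusted p = 2.53e-04).

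The genes whose 12 array values followed each member most closely were found by the root mean square difference after each gene's own mean was removed, among genes that rose above 6.12, the overall gene median, in the mean of at least 1 group. For CDKN1A these were BCL2A1, a survival gene of the BCL2 family, at 0.21, SH3TC1 at 0.21 and PLAUR, the urokinase receptor gene, at 0.27. BCL2A1 had means of 8.0 and 8.55 in ethanol and 12.68 and 12.56 in TPA in empty vector and EVI1-labelled cells. For CDKN2B they were ITGB2-AS1, ARID5B and the actin-severing gene GSN, at 0.31 to 0.32. CDKN1B was nearest to REV3L, a translesion polymerase subunit, at 0.09, CDK4 to PARP2, RUVBL2 and SSRP1 at 0.09 to 0.10, and CCND2 to SAC3D1, CDCA7L and CBX2 at 0.15 to 0.20. CCND3 was nearest to CRYBG1, ADCK2 and AGAP3 at 0.15 to 0.16, and ADCK2 read 8.05 and 8.13 in ethanol and 8.27 and 7.80 in TPA in the same order. These distances are descriptions over arrays that share 4 conditions.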

How the data were processed

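RNA of 12 U937 samples was hybridised to Affymetrix U133 Plus 2.0 arrays, with 250 ng of labelled RNA input per the labels' protocols. The deposited values are log2 probe set signals. The submitters' processing notes name RMA and Affymetrix Expression Console 1.3 as the authors' tools. RMA corrects background and normalizes across arrays, and it compresses differences of dim probe sets. No source used here states a build for the probe annotation, and coordinates are those of the RefSeq gene table (GRCh38.p14). Of 54675 probe sets, 41097 had 1 gene in the platform annotation, 1801 several and 11777 none listed. Where a gene had several single-gene probe sets, that with the highest 12-array mean was used.

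A model with 1 mean per group was fitted to all 12 arrays and 19775 genes with limma 3.58.1 in R 4.3.3 (lmFit and eBayes, 8 residual and 5.22 prior degrees of freedom) and p-values were adjusted by the Benjamini-Hochberg method, with a threshold of 0.05. The steps were tested on simulated data. The difference in response is the TPA difference in EVI1-labelled cells minus that in empty vector cells. The 2 TPA comparisons share no arrays with each other, but each shares arrays with the comparisons between populations.

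The genes eligible for naming were all members, the 3 genes with the nearest pattern to each, and from each related list per comparison up to 3 called genes at each extreme of the differences. Not all of these are named in the results. The nearest genes of CDKN2A, CDKN2D and CCND1 and list genes such as BRCA1 and CDC20, which fell with TPA, were left out. The members and lists were chosen with earlier results of these data known. Samples with the same replicate number in TPA deviated together (correlations of 0.415, 0.130 and 0.151), and the numbers were taken to pair these samples from the data, with no stated day or batch. In each other comparison of 2 groups at least 1 pair was under 0.1, but there too each array correlated most with the array of its own number. Between groups that differ in both vector and treatment, this held for replicate 1 only (correlations of 0.182 and 0.0796). For replicates 2 and 3 these correlations were -0.0197 to 0.0265, and another number correlated more. The main fit does not use this pairing, and the alternative with a replicate block does. The alternatives were a replicate block, all single-gene probe sets, a filter on low values, median and quantile scaling, a variance trend with robust prior, only the groups compared, other probe sets and each array left out. One related list is not reported here.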

Additional observations from a re-analysis of the deposited data

Results flagged for a closer look

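For 5 genes the response to TPA differed between the populations by the direct test. The CDKN1A rise was smaller in EVI1-labelled cells by a log2 difference of -0.81, and CCND3 differed by -0.70, with the arrays on which each call rests given above. CEBPA differed by 0.93 ± 0.18 (limma adjusted p = 0.0213), from -0.62 in empty vector cells to 0.30 in EVI1-labelled cells, and the call was lost without any 1 of 5 arrays (limma adjusted p = 0.0530 to 0.0590). These were replicates 1 and 3 of EVI1-labelled cells in ethanol, replicates 2 and 3 of empty vector cells in ethanol and replicate 2 of EVI1-labelled cells in TPA. ID1 differed by 0.82 ± 0.18 (limma adjusted p = 0.0311), from -1.16 to -0.33, and the call was lost without any 1 of 8 arrays (limma adjusted p up to 0.0907, when empty vector replicate 1 in ethanol was left out). SMAD3 differed by 0.67 ± 0.14 (limma adjusted p = 0.0250), from -0.48 to 0.19, and the call was lost without any 1 of 7 arrays (limma adjusted p up to 0.0766, with the same array left out), with none of its 3 other probe sets called.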

How the results depend on the processing

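Fits with the replicate number as a block called 8, 9, 1, 4 and 2 members in the 5 comparisons, as without it, and changed no member's call. Of the genes of the related lists the replicate block called 77 and 73 with TPA in empty vector and EVI1-labelled cells, 6 and 16 between populations in ethanol and TPA, and 4 for the difference in response, against 74, 70, 5, 14 and 3 without it. Members called between populations in TPA numbered 4, and 1 with the TPA arrays alone, 2 with the next probe set of each gene, and 2 to 4 with 1 array left out. For the difference in response the 2 members called became 1 with the next probe set and 0 to 3 with 1 array left out. Over all genes, with 1 array left out, the calls between populations in ethanol ranged from 369 to 787 (647 with all arrays). Those for the difference in response ranged from 188 to 681 (392). With the ethanol arrays alone, 945 genes were called between populations in ethanol. With the TPA arrays alone, 1241 genes were called between populations in TPA, against 2214. The GAPDH gap difference of -0.172 ranged from -0.214 to -0.126 with 1 array left out, and 9 of these missed the threshold. Among called differences of members, directions turned at other probe sets whose group means were below the lowest array median: CDKN2A 211156_at (-0.067 and -0.027 with TPA in empty vector and EVI1-labelled cells), CDKN2D 213586_at (0.32 and 0.38 with TPA), and CCND3 1562028_at (0.15 with TPA in EVI1-labelled cells, 0.13 between populations in TPA and 0.25 for the difference in response). Differences that were not called and lie near 0 also changed sign with 1 array left out, such as that of CDK4 between populations in TPA (-0.14 to 0.09), and that of CCND2 in ethanol did so at 231259_s_at (0.09). The cause was not tested. The 3 arrays per group limit the precision, with a median SE of 0.11 for a difference and 0.15 for a difference in response.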
